A study of Mus musculus with 64 samples.

Results

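Ttn, Tnnt2, Tnnt1 and Dsp are 4 of the 48795 genes in a count table from mouse striatum and cerebral cortex. They were picked by symbol because their levels in Q140 striatum differed from wild type: Ttn, Tnnt2 and Dsp stood higher and Tnnt1 stood lower. That contrast is therefore given below as a description. The main tests use mice, tissues or sexes outside that contrast, and where a comparison shares libraries with it, or was known beforehand, this is stated. The Q140 allele is an expanded CAG tract knocked into the mouse huntingtin gene and models Huntington's disease. Polq encodes DNA polymerase theta, an enzyme that joins broken DNA ends.

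All mice were C57BL/6 and 6 months old, and both tissues came from each of 32 animals (64 libraries). The 4 genotypes were wild type, mice heterozygous for the Q140 knock-in, Polq+/- mice that have lost 1 Polq copy, and Q140 Polq+/- mice that carry both alleles. Each genotype had 4 females and 4 males. Q140 Polq+/- mice were compared with Polq+/- mice, so those 2 groups share the Polq+/- label and have no mouse in common with the wild type and Q140 groups that chose the genes. Total counts per library ran from 28.7 to 40.6 M reads in striatum (median 34.7) and from 30.9 to 40.1 M reads in cortex (median 34.5). The tissues matched their labels: the summed level of 16 spiny projection neuron markers was 11028 to 21594 CPM (counts scaled to library size by the trimmed mean of M-values, TMM) in striatum and 1215 to 1381 in cortex. Polq had medians of 3.11 CPM in wild-type and 3.25 in Q140 striatum, and of 1.72 in mice labelled Polq+/- and 1.81 in mice labelled Q140 Polq+/-. In 4 of the 16 mice labelled Polq+/-, Polq was very low (0.187 CPM at the lowest), and the labels were kept. These were 1 of the 8 Polq+/- mice and 3 of the 8 Q140 Polq+/- mice.

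Titin (Ttn) and the troponin T proteins (Tnnt1, Tnnt2) are parts of the sarcomere, the contractile unit of striated muscle. Titin spans from the Z-disc to the M-band and gives the sarcomere its elasticity, and troponin T anchors the calcium-sensing troponin complex to tropomyosin on the thin filament. Tnnt2 is the form of heart muscle and Tnnt1 the form of slow skeletal muscle. Desmoplakin (Dsp) is the plakin that ties intermediate filaments to desmosomes, the spot-like junctions that hold epithelial and heart muscle cells together. Their transcripts were scarce in these brain samples.

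The sequences before 1 RefSeq start site of each gene are shown because Ttn, Tnnt2 and Dsp stood higher in the same libraries while Tnnt1 stood lower. Each is the 250 bases before a RefSeq start on GRCm38.p6, written 5′ to 3′ on the gene's strand: Ttn at chr2:76982548-76982797 (minus strand), Tnnt2 at chr1:135836084-135836333 (plus strand, the first of 2 RefSeq starts), Tnnt1 at chr7:4515976-4516225 (minus strand) and Dsp at chr13:38151044-38151293 (plus strand). Capitals mark matches to the motifs named after the sequences.
Ttn: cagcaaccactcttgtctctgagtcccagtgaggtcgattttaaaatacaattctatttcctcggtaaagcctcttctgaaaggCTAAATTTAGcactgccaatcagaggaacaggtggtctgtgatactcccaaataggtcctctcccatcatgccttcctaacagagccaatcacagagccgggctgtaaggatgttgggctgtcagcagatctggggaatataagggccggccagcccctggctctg
Tnnt2 start 1: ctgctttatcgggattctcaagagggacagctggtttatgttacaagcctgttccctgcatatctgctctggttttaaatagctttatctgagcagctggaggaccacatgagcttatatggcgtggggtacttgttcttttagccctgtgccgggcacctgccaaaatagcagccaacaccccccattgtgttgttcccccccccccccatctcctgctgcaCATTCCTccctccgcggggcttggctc
Tnnt1: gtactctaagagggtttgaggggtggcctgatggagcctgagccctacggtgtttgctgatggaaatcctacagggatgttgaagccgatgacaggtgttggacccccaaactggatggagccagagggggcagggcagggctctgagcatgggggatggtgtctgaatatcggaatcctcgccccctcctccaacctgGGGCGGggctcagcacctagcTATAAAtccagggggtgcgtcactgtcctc
Dsp: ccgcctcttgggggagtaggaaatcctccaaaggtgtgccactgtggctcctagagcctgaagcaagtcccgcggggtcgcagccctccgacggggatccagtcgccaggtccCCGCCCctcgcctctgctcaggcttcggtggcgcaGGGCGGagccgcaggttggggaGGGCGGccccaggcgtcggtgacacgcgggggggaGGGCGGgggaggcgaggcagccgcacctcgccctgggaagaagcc
Both strands were searched for the MEF2 box and the CArG box (named without letters), the MCAT box CATTCCT, the TATA box TATAAA, the GC box GGGCGG, the AP-1 site TGANTCA, the site TGACGTCA and the E-box CANNTG. E-boxes are left in lower case, since 66.2% of the 32851 RefSeq promoters of this length hold 1 or more. No 2 of the capitalised matches overlapped. The Ttn window held a MEF2 box at position -166, a motif found in 2.92% of all promoters. Tnnt2 held an MCAT box at position -27 (4.51% of all promoters), and the window before its second start at chr1:135836739-135836988 held none of the capitalised motifs. Tnnt1 held a TATA box at position -30 (12.4%) and a GC box at -51. The Dsp window stood apart in composition: it had 4 GC boxes (32.7% of promoters have at least 1), 22 CpG dinucleotides and 72.4% G and C, against medians of 6 CpG and 52.4% over all promoters. No motif other than the GC box, which Tnnt1 and Dsp had, was shared between these windows apart from the E-box, which Ttn, Tnnt2 and Tnnt1 held. The Tnnt1 window lies wholly inside the GENCODE gene, downstream of its outermost start, and its last bases are in an annotated exon. A match describes the letters in the window and no more.

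Ttn (ENSMUSG00000051747, minus strand of chromosome 2, 76703980 to 76982547 on GRCm38) had 0.361 CPM in the lowest wild-type striatum, 0.683 in the median and 0.843 in the highest. The same 3 values in Q140 mice were 1.71, 2.11 and 3.18 CPM. Every Q140 library lay above every wild-type library, and the fitted difference was 1.76 on the log2 scale (SE 0.171; edgeR). Mice labelled Polq+/- had 0.446, 0.837 and 1.32 CPM, and Q140 Polq+/- mice had 1.22, 2.02 and 2.30. All 8 Q140 Polq+/- libraries were above the Polq+/- median and 7 were above the highest Polq+/- library. Ttn rose 2.22-fold in this second comparison (log2 1.15, SE 0.167, adjusted p = 9.12e-07; edgeR's quasi-likelihood test, Benjamini-Hochberg over all genes, threshold 0.05). The counts behind it were small: 16 to 42 reads per Polq+/- library and 41 to 94 per Q140 Polq+/- library, over a transcript model of 116.83 kb. The annotation places an antisense transcript, Gm13938, inside Ttn, with 6 reads or fewer in all striatal libraries of any genotype together. Per the labels the library kit keeps strand; whether HTSeq used it when counting is unknown from the sources used here.

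Tnnt2 (ENSMUSG00000026414, plus strand of chromosome 1, 135836354 to 135852260) was the most evenly separated of the 4. Its lowest, median and highest wild-type values in striatum were 1.92, 3.23 and 3.59 CPM, and in Q140 mice 5.77, 6.66 and 7.95. The groups did not overlap, with a fitted log2 difference of 1.17 (SE 0.11). In mice labelled Polq+/- the values were 2.06, 2.77 and 4.29 CPM, and in Q140 Polq+/- mice 5.90, 7.20 and 7.91. Again no Q140 Polq+/- library reached down to a Polq+/- library. Tnnt2 rose 2.40-fold (log2 1.26, SE 0.111, adjusted p = 1.31e-11; edgeR), and the size of the change was 1.2 to 1.37 when any 1 library was left out. Read counts were 77 to 137 in Polq+/- and 217 to 301 in Q140 Polq+/- libraries.

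Tnnt1 (ENSMUSG00000064179, minus strand of chromosome 7, 4504570 to 4516382) went the other way. Wild-type striatum had 1.36, 1.93 and 2.81 CPM (lowest, median, highest), and Q140 striatum had 0.453, 0.841 and 1.23. All Q140 libraries lay below all wild-type libraries (log2 difference -1.18, SE 0.17). Polq+/- mice had 0.982, 1.3 and 1.82 CPM, and Q140 Polq+/- mice 0.710, 0.951 and 1.1. The 8 Q140 Polq+/- libraries were all under the Polq+/- median, yet 4 of them were within the Polq+/- range. The fall was 1.41-fold (log2 -0.50, SE 0.171, adjusted p = 0.0237; edgeR), the smallest of the 4 changes. It no longer passed the threshold without Polq+/- female 3 (-0.43, adjusted p = 0.0623) or without Q140 Polq+/- male 1 (-0.44, adjusted p = 0.0542). Tnnt1 had 34 to 67 reads per Polq+/- library and 28 to 42 per Q140 Polq+/- library.

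Dsp (ENSMUSG00000054889, plus strand of chromosome 13, 38151294 to 38198577) varied most between mice of a genotype. Its lowest, median and highest values in wild-type striatum were 0.534, 1.21 and 1.79 CPM, and in Q140 striatum 2.41, 4.40 and 6.06. These groups did not overlap (log2 difference 1.82, SE 0.276). Polq+/- mice had 0.775, 1.41 and 5.31 CPM, and Q140 Polq+/- mice 1.14, 3.11 and 6.76. Of the Q140 Polq+/- libraries 7 lay above the Polq+/- median, 2 lay above the highest Polq+/- library, and the ranges overlapped widely. Dsp rose 2.06-fold (log2 1.04, SE 0.264, adjusted p = 0.00267; edgeR). The highest Polq+/- library, female 3 at 5.31 CPM against 2.30 in the next, also carried choroid plexus RNA: its 10 choroid plexus markers summed to 1440 CPM, against 19.2 to 68.2 over the striatal libraries of the other 3 genotypes. Of 8 choroid plexus markers tested, 2 fell and 0 rose in Q140 Polq+/- against Polq+/- (median log2 change -1.84). Without that library the Dsp change was 1.38 (SE 0.23, adjusted p = 2e-05), and the part of choroid plexus RNA in its Dsp level was not tested. A transcript of uncertain coding status, Gm10129, overlaps the Dsp start on the opposite strand and had 2 reads or fewer over the striatal libraries of any genotype.

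**Figure D1:**
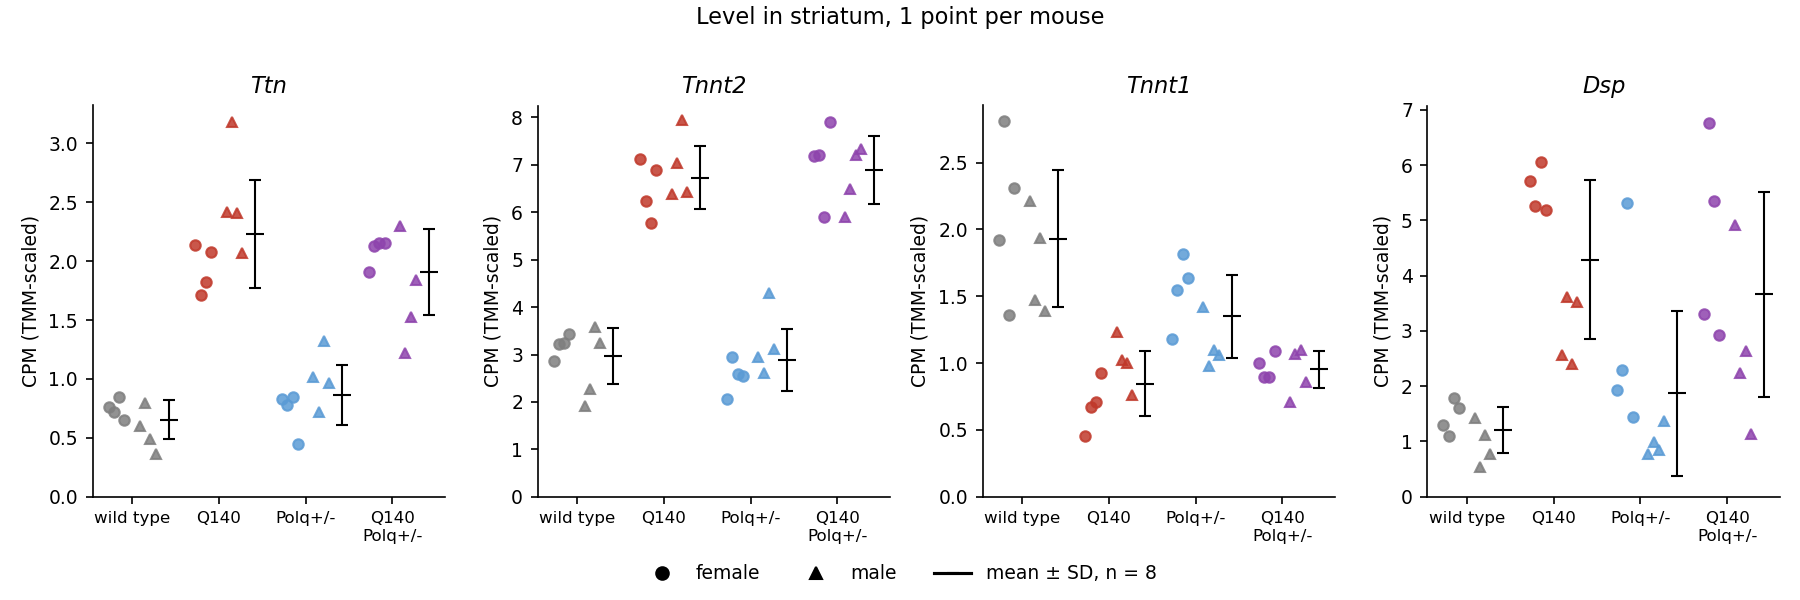
Level of each gene in striatum (vertical axis, CPM after TMM scaling) by genotype (horizontal axis), with 1 point per mouse, circles for females, triangles for males, and the mean ± SD of 8 mice beside each group. Ttn, Tnnt2 and Dsp sit higher in both Q140 groups and Tnnt1 sits lower, and the Polq+/- group holds 1 female at 5.31 CPM of Dsp.

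All 4 genes passed the test in Q140 Polq+/- against Polq+/- striatum, where 31.4% of 18270 genes tested passed in either direction: 16.1% rose, as Ttn, Tnnt2 and Dsp did, and 15.3% fell, as Tnnt1 did. Groups that did not overlap were seen for 1 of the 4 genes (Tnnt2), against 11.5% of all genes tested. In the comparison that chose them the groups did not overlap for any of the 4, where 8.25% of genes tested had no overlap and 32.1% passed the test (16.9% higher, 15.2% lower). The 2 comparisons share no mouse. Earlier results of Q140 Polq+/- against Polq+/- were known for Ttn and Tnnt2 when the genes were chosen. In bulk tissue a change in the number of cells of a type and a change in RNA per cell cannot be told apart.

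Subtracting the Q140 difference seen with both Polq copies from that seen under the Polq+/- label gave -0.61 for Ttn (log2, SE 0.242), -0.78 for Dsp (SE 0.383), 0.09 for Tnnt2 (SE 0.156) and 0.69 for Tnnt1 (SE 0.242). The point estimates were thus nearer to 0 under the Polq+/- label for 3 of the genes, and this contrast contains the libraries that chose them. Of 18270 genes tested, 0 passed here with edgeR (893 at an unadjusted p under 0.05). Picking genes for a large Q140 difference itself favours a smaller one in other mice, so no test is read for the 4 here. Polq+/- against wild type gave 0.39 for Ttn (SE 0.186), -0.51 for Tnnt1 (SE 0.16), -0.05 for Tnnt2 (SE 0.117) and 0.57 for Dsp (SE 0.293), and 0.0493% of all genes passed. Q140 Polq+/- against Q140 gave -0.22 for Ttn (SE 0.153), 0.17 for Tnnt1 (SE 0.182), 0.04 for Tnnt2 (SE 0.103) and -0.21 for Dsp (SE 0.247), and 0.0547% of all genes passed. None of the 4 was among them with edgeR, DESeq2 or limma voom. At an unadjusted p under 0.05 (edgeR), Polq+/- against wild type had 2 of the 4 and 924 of all 18270 genes. Q140 Polq+/- against Q140 had 0 of the 4 and 611 of the 18270. Each of these comparisons uses wild-type or Q140 libraries that took part in the choice of genes.

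Cortex of the same mice gave a different picture. Tnnt2 was higher there than in wild-type striatum, with lowest, median and highest values of 6.04, 7.32 and 8.26 CPM in wild type, 5.48, 6.69 and 8.98 in Q140, 6.09, 7.18 and 8.91 in Polq+/-, and 6.31, 7.67 and 10.7 in Q140 Polq+/- mice. All 4 ranges overlapped. Tnnt1 ranged from 2.62 to 3.58 CPM in wild-type and Q140 cortex, from 2.58 to 3.52 in Polq+/- and from 2.04 to 3.64 in Q140 Polq+/- mice. Ttn was at 0.148 to 0.674 CPM in every cortical library, with group medians between 0.333 and 0.495. Dsp reached at most 0.438 CPM, or 15 reads, and did not pass the low-count filter, so it was not tested within cortex.

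Of the 3 genes tested in cortex, 0 passed in Q140 against wild type, where 0.348% of 18116 genes did, and 0 in Q140 Polq+/- against Polq+/-, where 0.337% did. DESeq2 and limma voom also called 0 of the 3, and 0 had an unadjusted p under 0.05. The Tnnt2 difference in Q140 Polq+/- against Polq+/- cortex was 0.13 on the log2 scale, with a 95% interval from -0.08 to 0.34 that lies below its rise in striatum. For Tnnt1 it was -0.16 (-0.34 to 0.02), and for Ttn 0.14 (-0.44 to 0.72). Ttn had 5 to 24 reads per cortical library, and its interval is correspondingly wide. No member passed for the Polq+/- label either (Polq+/- against wild type, 0.0442% of genes called; Q140 Polq+/- against Q140, 0.0552%), and with edgeR 0 of all genes passed for the difference between the Q140 effects (863 at an unadjusted p under 0.05).

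The difference between tissues was tested in the mice labelled Polq+/-, from a fit of all 64 libraries with the 2 tissues of a mouse paired. The Q140 effect was larger in striatum than in cortex for Ttn (difference of log2 changes 0.99, SE 0.333, adjusted p = 0.0291) and Tnnt2 (1.13, SE 0.16, adjusted p = 1.44e-06). Tnnt1 had a difference of -0.34 that did not pass (SE 0.177, adjusted p = 0.198). Thus 2 of the 3 genes testable in both tissues passed, against 19.3% of 19091 genes tested, and no test is given for Dsp, whose cortical level was too low.

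**Figure D2:**
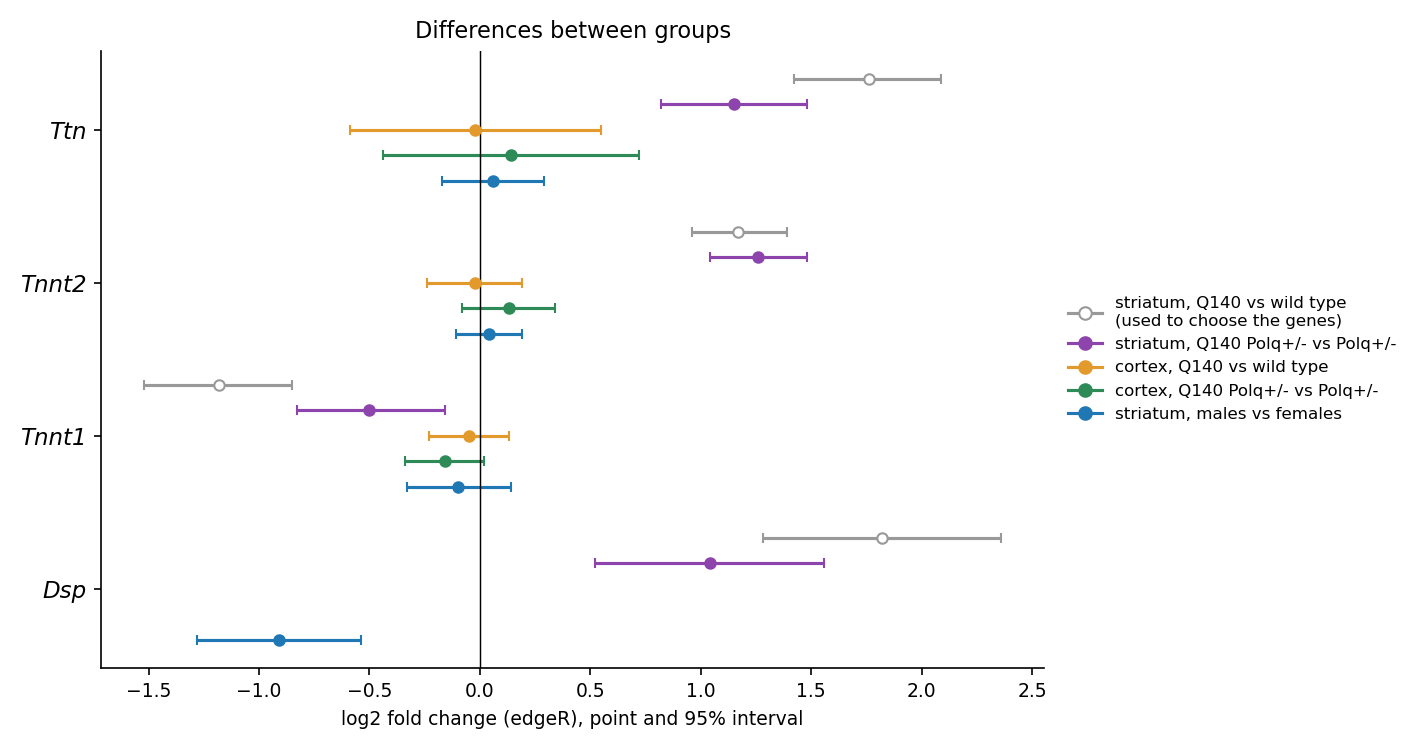
Log2 fold change of each gene (horizontal axis, point and 95% interval from edgeR) in 5 comparisons, with the one that chose the genes drawn as open grey points. In striatum the Q140 Polq+/- against Polq+/- changes (Ttn 1.15, Tnnt2 1.26, Tnnt1 -0.50 and Dsp 1.04) have intervals that leave out 0, the cortical intervals include 0, Dsp has no cortical point because it was not tested there, and Dsp has a sex difference of -0.91.

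Apart from Q140, the genes had different levels in the tissues. In Polq+/- mice, Ttn was 2.23-fold higher in striatum than in cortex (log2 1.16, SE 0.239, adjusted p = 3.29e-05). Tnnt2 was 2.62-fold lower in striatum (log2 -1.39, SE 0.119, adjusted p = 6.12e-13) and Tnnt1 2.35-fold lower (log2 -1.23, SE 0.12, adjusted p = 1.97e-12). These 3 genes, testable in both tissues, all passed, in a comparison where 77.3% of genes did (38.9% higher and 38.4% lower in striatum). Dsp could enter that comparison only through its striatal level, so no test of it is given: Polq+/- mice had 0.775 to 5.31 CPM of Dsp in striatum and 0.0881 to 0.326 in cortex.

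Per length, on the deposited FPKM scale (fragments per kilobase and library size), Ttn had the lowest mean of the 4 in every striatal and cortical group. Tnnt1 had the highest mean in cortex and in striatum without the Q140 allele, and Tnnt2 had it in striatum of both Q140 groups. This order between genes depends on the lengths used, 2.2 kb for Tnnt1 and 7.75 kb for Tnnt2. In CPM, Tnnt2 had a higher mean than Tnnt1 in every group, with 7.25 against 3.09 in wild-type cortex and 2.97 against 1.93 in wild-type striatum. Mean Tnnt2 was highest in Q140 Polq+/- cortex (1.04 FPKM), followed by the other cortical groups (0.921 to 0.940). Q140 Polq+/- striatum (0.910) and Q140 striatum (0.886) came next, and each group down to Q140 striatum overlapped the one before it. A gap followed, and wild-type striatum (0.376) and Polq+/- striatum (0.363) came last. Tnnt2 in Q140 striatum thus overlapped the group above it in the order, and wild-type striatum, the group below, did not reach up to it. Tnnt1 had its highest means in the 4 cortical groups (1.26 to 1.39 FPKM), followed by wild-type (0.854), Polq+/- (0.595), Q140 Polq+/- (0.443) and Q140 striatum (0.391), with overlap between each pair of neighbours.

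Dsp had the opposite order of tissues, from Q140 striatum (0.456 FPKM) and Q140 Polq+/- striatum (0.388) to Polq+/- (0.190) and wild-type striatum (0.123), then, after a gap, cortex at 0.0165 to 0.0216. Ttn was at 0.0195 FPKM in Q140 and 0.0167 in Q140 Polq+/- striatum, at 0.00723 in Polq+/- and 0.00548 in wild-type striatum, and at 0.00317 to 0.00356 in cortex. Neighbouring groups overlapped for Ttn throughout. These levels describe the pattern for which the genes were picked.

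**Figure D3:**
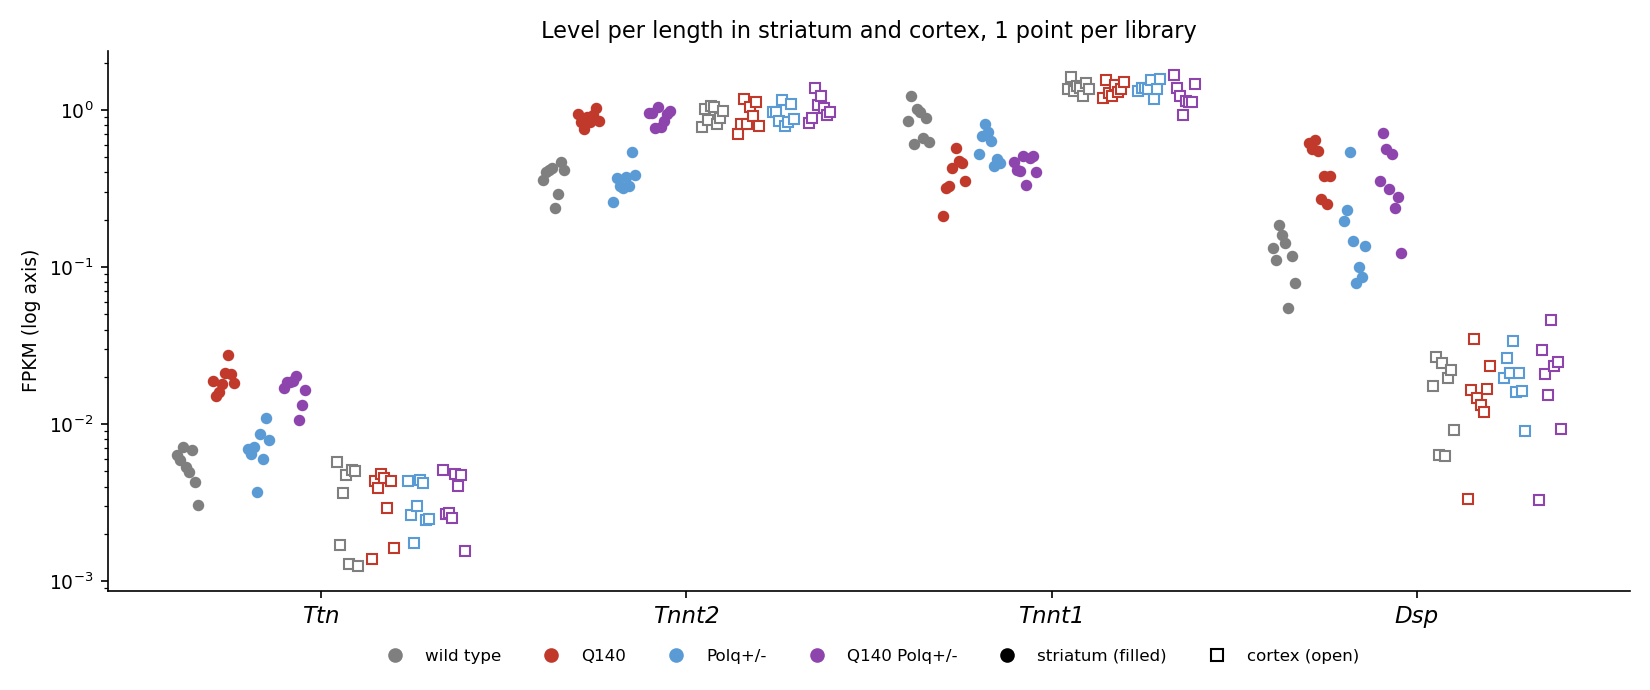
FPKM of each gene on a log axis in all 64 libraries, filled circles for striatum and open squares for cortex, coloured by genotype. Tnnt2 in both Q140 striatal groups overlaps the cortical values (0.886 and 0.910 FPKM on average against 0.921 to 1.04), and Dsp is lower in cortex than in striatum in every genotype.

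Dsp also differed between the sexes in striatum, a factor that played no part in the choice. Wild-type females ranged from 1.1 to 1.79 CPM (median 1.46) and wild-type males from 0.534 to 1.42 (median 0.950). Q140 females ranged from 5.18 to 6.06 CPM (median 5.48) and Q140 males from 2.41 to 3.61 (median 3.04). Polq+/- females ranged from 1.45 to 5.31 CPM (median 2.12) and Polq+/- males from 0.775 to 1.37 (median 0.914). Q140 Polq+/- females ranged from 2.93 to 6.76 CPM (median 4.33) and their male counterparts from 1.14 to 4.92 (median 2.44). Females had the higher mean in all 4 genotypes. The sexes did not overlap in Q140 mice and, narrowly, in Polq+/- mice (lowest female 1.45, highest male 1.37 CPM). The share of all genes without overlap between 4 females and 4 males is not given here, so this gap is a description only.

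Over all 32 mice Dsp was 1.88-fold higher in females (males minus females, log2 -0.91, SE 0.19, adjusted p = 0.0188; edgeR with genotype in the model). Of all genes tested 0.367% passed in either direction, 0.257% lower and 0.109% higher in males. The difference was -0.79 (adjusted p = 0.0111) without Polq+/- female 3, and it did not pass the threshold without the 4 mice of low Polq (-0.92, adjusted p = 0.0647), where fewer mice were tested. Ttn (0.06, SE 0.119), Tnnt1 (-0.10, SE 0.12) and Tnnt2 (0.04, SE 0.0775) did not pass. In cortex 0 of the 3 tested genes passed by edgeR, DESeq2 or limma voom (0 at an unadjusted p under 0.05), against 1.15% of all genes.

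Markers of ependymal cells, which line the ventricle wall, summed to 33.1 to 71.4 CPM in striatum of females and 20.5 to 66.1 in males, with 0 of 10 markers called between the sexes. Choroid plexus sums were 24.3 to 51.3 CPM in males of all genotypes, and 19.2 to 68.2 in females other than Polq+/- mice, whose 4 females had a median of 40.4 and a highest value of 1440. Over 8 tested choroid plexus markers the median sex difference was -0.92, with 0 called by edgeR. Their part in the Dsp difference was not tested.

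**Figure D4:**
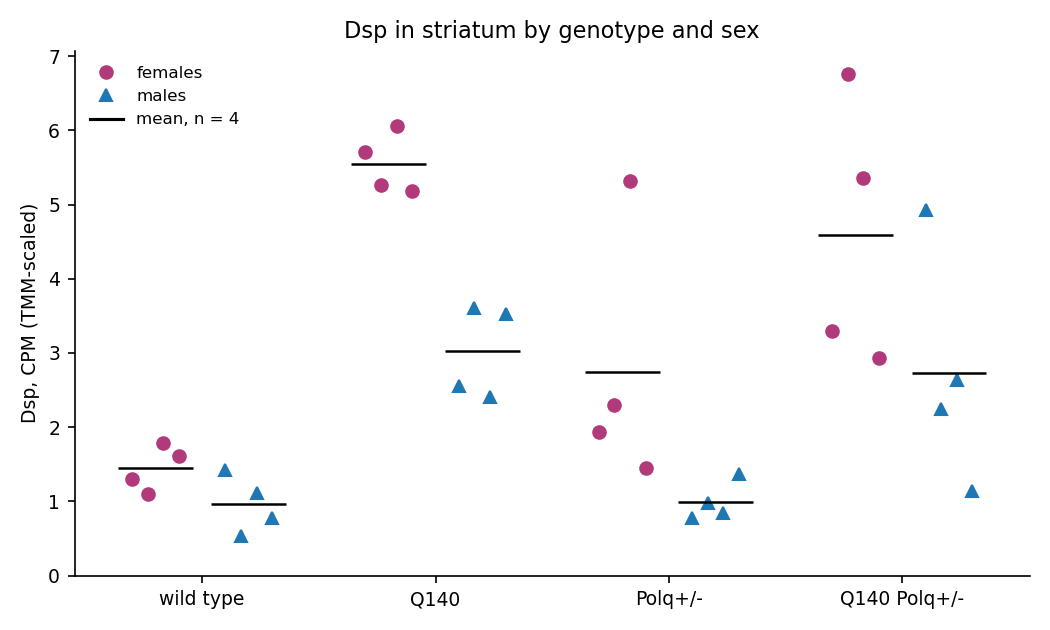
Dsp in striatum (vertical axis, CPM) for females (circles) and males (triangles) of each genotype, with the mean of 4 mice as a line. Females lie higher on average in each genotype, by 1.51-fold in wild type, 1.83-fold in Q140, 2.76-fold in Polq+/- and 1.68-fold in Q140 Polq+/- mice. The Polq+/- ratio includes female 3 at 5.31 CPM, against 2.3 CPM in the next library.

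The Q140 effect within the Polq+/- label was also compared between sexes. Males minus females, it differed by -0.73 for Ttn (log2, SE 0.301), -0.42 for Tnnt2 (SE 0.21), 0.38 for Tnnt1 (SE 0.314) and 0.75 for Dsp (SE 0.542). Of these 0 passed, as did 0 of the 18270 genes with edgeR (559 at an unadjusted p under 0.05, Ttn among them). Within females, Ttn (1.52), Tnnt2 (1.48) and Tnnt1 (-0.67) passed and Dsp (0.73, adjusted p = 0.158) did not, where 19.3% of genes passed. The Polq+/- females included female 3, with 5.31 CPM of Dsp and the high choroid plexus sum. With female 3, Polq+/- females (1.45 to 5.31 CPM) overlapped Q140 Polq+/- females (2.93 to 6.76), and the other Polq+/- females had at most 2.3. The change within females was not fitted without female 3, so no rise of Dsp in females is read from these values. Within males, Ttn (0.79), Tnnt2 (1.06) and Dsp (1.49) passed and Tnnt1 (-0.30, adjusted p = 0.422) did not, where 18.7% of genes passed.

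Few other genes of the sarcomere rose beside Ttn and Tnnt2. Of all genes tested in Q140 Polq+/- against Polq+/- striatum, 16.1% rose and 15.3% fell. The list counts of that comparison, here and below, stand beside these shares as a description, with no set test. In Q140 Polq+/- against Polq+/- striatum, 14 of 21 further thin filament genes were testable, of which 0 rose and 8 fell (median log2 change -0.17, against 0.0051 over all genes). Among them were the tropomyosins Tpm1 (-0.40, SE 0.0464, adjusted p = 1.08e-08) and Tpm2 (-0.46, SE 0.0862, adjusted p = 6.99e-05), the filament-capping Tmod1 (-0.24, adjusted p = 4.37e-06) and skeletal actin Acta1 (-0.34, adjusted p = 0.00589). Among the rest of the troponin family, Tnni3, the cardiac troponin I, fell (-0.37, SE 0.139, adjusted p = 0.0394) from a mean of 1.27 to 0.979 CPM, Tnni1 (5.04 and 5.39 CPM; 0.09, adjusted p = 0.482) and Tnnc1 (0.01, adjusted p = 0.966) did not pass, and Tnnt3, Tnni2 and Tnnc2 were too low to test. Tnnt2, which was picked for such a rise, was thus the 1 troponin gene that rose. The other troponin genes, and Pkp2 and Tac1 below, were named after their values were seen.

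Of 24 thick filament genes 11 were testable, with 0 up and 3 down (median -0.02): the myosin heavy chains Myh7b (-1.09, SE 0.0745, adjusted p = 2.25e-14) and Myh7 (-0.86, SE 0.0718, adjusted p = 4.18e-12), and Mybph (-0.58, adjusted p = 0.0439). Of 33 further Z-disc, M-band and titin-associated genes 21 were testable, with 1 up and 5 down (median -0.06). The one that rose was Ldb3, a Z-disc PDZ-LIM protein (0.48, SE 0.0591, adjusted p = 4.03e-08). The titin-binding Z-disc crosslinker Actn2 (-0.33, adjusted p = 1.27e-07), Nexn (-0.31, adjusted p = 7.25e-06) and Speg (-0.17, adjusted p = 0.000219) fell.

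Genes of muscle calcium handling, several of which neurons also express, gave 0 up and 9 down of 17 tested (median -0.15). Ryr1, the skeletal muscle calcium release channel, fell from a mean of 181 to 58.9 CPM (-1.61, SE 0.0937, adjusted p = 4.3e-14), and Atp2a2, the calcium pump of the endoplasmic reticulum, fell by less (-0.25, adjusted p = 4.83e-08). Of 26 muscle transcription factors 11 were testable, with 1 up and 4 down (median -0.07). Mef2c rose (0.18, SE 0.0393, adjusted p = 0.000462), and Srf (-0.31, adjusted p = 8.15e-05), Tead3 (-0.45, adjusted p = 0.000605) and Tead1 (-0.31, adjusted p = 0.00299) fell. MEF2 and TEAD proteins bind the MEF2 and MCAT boxes, a background fact that was not tested here.

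Partners of desmoplakin in the desmosome gave a mixed result. Of 16 further desmosome genes 8 were testable, with 2 up and 1 down (median 0.13). The desmosomal cadherins Dsg2 and Dsg1c both rose: Dsg2 from a mean of 2.06 ± 0.907 CPM to 4.25 ± 1.13 (SD, n = 8; log2 1.03, SE 0.219, adjusted p = 0.000452) and Dsg1c from 2.76 ± 1.37 to 5.18 ± 1.34 (log2 0.98, SE 0.177, adjusted p = 4.66e-05). Dsp itself stood at 1.87 ± 1.49 and 3.66 ± 1.86 CPM in these groups. Dsg1c has near-identical copies, Dsg1a and Dsg1b, whose counts were 10 or fewer per genotype, and the split of reads between them is uncertain. Jup, the junctional plakoglobin that links cadherins to desmoplakin, fell slightly (-0.16, SE 0.0409, adjusted p = 0.00175), and Pkp2 (0.20, adjusted p = 0.25) and Pkp4 (-0.07, adjusted p = 0.199) did not pass.

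Dsg1c was called higher in males (0.69, SE 0.125, adjusted p = 0.00293), the reverse of Dsp, and Dsg2 had no called sex difference (-0.06, SE 0.155). Other plakins and their intermediate filament partners gave 1 up and 4 down of 15 tested (median 0.02): Krt1 rose (0.50, adjusted p = 0.00342), and the plakins Ppl (-0.69, adjusted p = 5.55e-05) and Plec (-0.23, adjusted p = 0.000309) and the keratin Krt10 (-0.29, adjusted p = 8.91e-06) fell. Adherens junction genes gave 3 up (Cdh2 by 0.12, Ctnnb1 by 0.07 and Nectin1 by 0.16, named after their values were seen) and 6 down of 15 tested (median -0.10), among them Vcl (-0.28) and Ctnnd2 (-0.20). Dsp, which was picked for its rise with Q140, and its 2 cadherins had the largest rises among the tested desmosome and plakin genes.

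**Figure D5:**
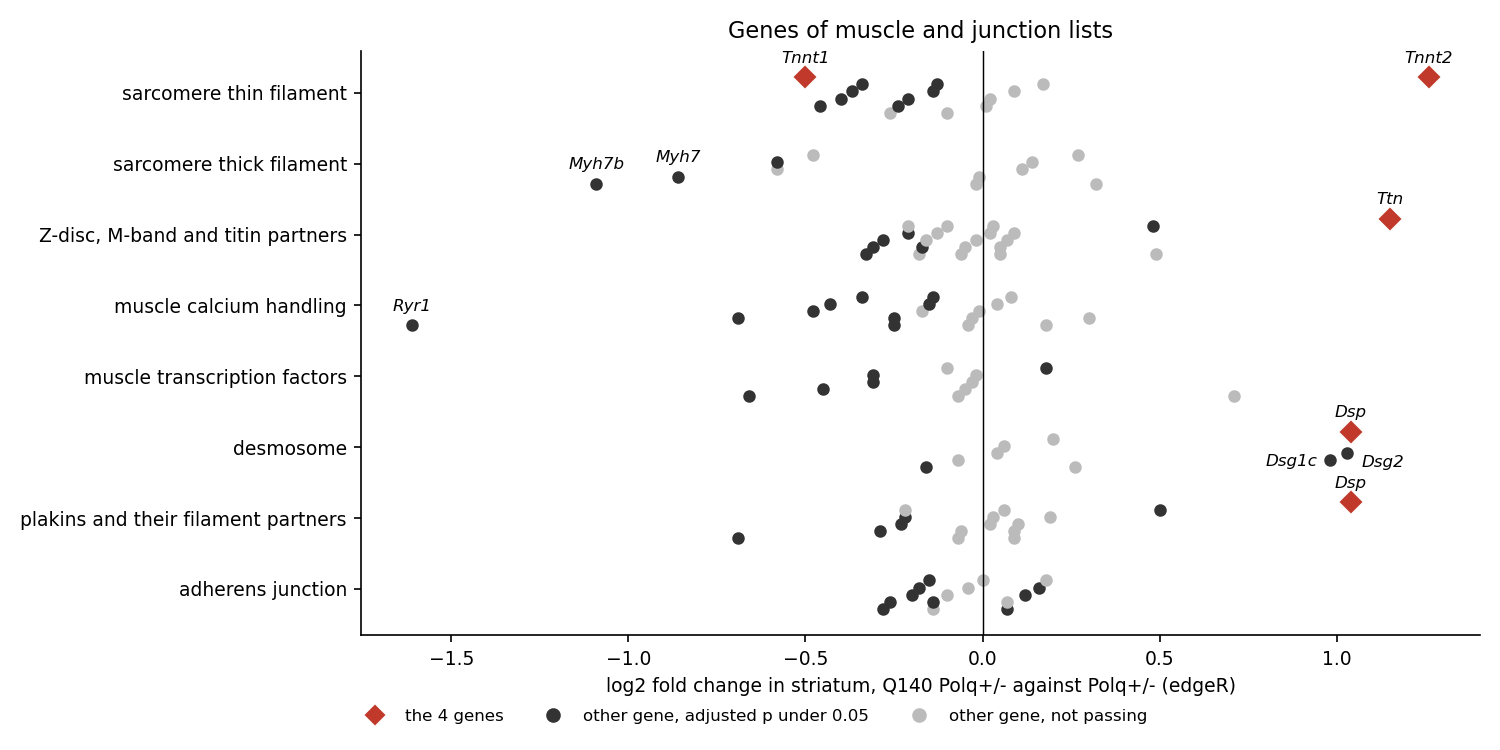
Log2 fold change in striatum of Q140 Polq+/- against Polq+/- mice (horizontal axis) for every testable gene of 8 lists (rows), dark where the adjusted p was under 0.05, grey where not, with the 4 genes as red diamonds. Ttn at 1.15 and Tnnt2 at 1.26 lie to the right of all other genes of their lists. The 4 genes were picked for their change with Q140, and results of this comparison were known for Ttn and Tnnt2, so their place is a description. Tnnt1 at -0.50 lies with the falling thin filament genes, and Dsp at 1.04 lies beside Dsg2 and Dsg1c.

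Genes beside the 4 on the chromosome were looked up as well, in Q140 Polq+/- against Polq+/- striatum. In that comparison 31.4% of all genes tested passed, so calls among neighbours are common without any link to the 4. Around Ttn, Fkbp7 (30.9 kb away; 0.44, SE 0.11, adjusted p = 0.00186) and Sestd1 (197.8 kb; 0.25) rose, and Plekha3 (7.2 kb; -0.03) and Ccdc141 (27.4 kb) did not pass. Beside Tnnt1, Tnni3 lies 1.9 kb away and fell, as given above, and Ppp1r12c, 2.9 kb away on the other side, fell too (-0.38), while Eps8l1 and Dnaaf3 did not pass. Near Tnnt2, Lad1 (3.0 kb) and Tnni1 (25.4 kb) did not pass, and Pkp1 and Igfn1 were too low to test. Near Dsp, Bmp6 (146.5 kb) fell (-0.34), and Snrnp48 (6.4 kb; 0.08), Riok1 (89.9 kb; 0.09) and Cage1 (114.2 kb) did not pass. In Q140 against wild type, where 32.1% of all genes tested passed, Fkbp7, Sestd1, Tnni3, Ppp1r12c and Bmp6 were called in the same directions. Riok1 (0.15, adjusted p = 0.00897; edgeR) and Snrnp48 (0.14, adjusted p = 0.0233) were called higher there as well.

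Within genotype and sex, no correlation between the 4 genes from mouse to mouse passed a test. Over 32 striatal libraries, with genotype and sex means removed from log2 CPM, the 6 pairs had Pearson's r from -0.18 to 0.20 and Spearman's rho from -0.20 to 0.13. The highest r was that of Ttn and Dsp (r = 0.20, permutation p = 0.417; rho = 0.13, permutation p = 0.529), and it was 0.07 without the 2 libraries farthest from the median. The 3 pairs in cortex had r from -0.19 to -0.03. Over all 9 pairs the adjusted p was 0.878 for r and 0.8 for rho. Few reads limit these values: Ttn had 13 to 31 per wild-type striatal library and Tnnt1 28 to 42 per Q140 Polq+/- striatal library. Counting noise at such levels can hide shared variation, so its absence is not concluded.

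The genes whose residuals were most like those of each member were found among 15249 genes with a mean of at least 1 CPM, as a description over the same 32 libraries, which share depth and dissection. Picking the largest of that many r values favours high ones, and no test of them was made. For Ttn the genes most alike were Ece2 (r = 0.64), Ccdc28a (0.61) and Gm20387 (0.60). Tnnt1 was followed by Mpv17l (0.74) and Fscn1 (0.70), and Tnnt2 by Amy1 (0.75), Gm6297 (0.72) and Spg7 (0.70). For Dsp they were Fmnl1 (0.73), R3hdm2 (0.72) and Slc7a7 (0.71). Few of these carried over to cortex: r there was 0.52 for Amy1 with Tnnt2 and 0.36 for Mpv17l with Tnnt1, and between -0.40 and 0.23 for the other 6 named genes with a value.

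Most defining markers of muscle cells were near 0. Of 13 skeletal muscle fibre markers 7, among them Ckm, Myh1, Myh4, Mb and Tnnt3, averaged under 0.1 CPM in striatum. The summed level of the list was 27 to 35.6 CPM in wild type, 24.4 to 31.7 in Q140, 28.5 to 31.9 in Polq+/- and 26.9 to 33.1 in Q140 Polq+/- mice, with 68.2% of it from Pygm. Of 10 cardiomyocyte markers 6, among them Myh6, Actc1, Nppa and Myl7, were under 0.1 CPM as well, and 98.6% of that sum came from Ryr2. Of the testable markers in these 2 lists, 4 each, 0 rose and 1 fell in each list in Q140 Polq+/- against Polq+/- striatum.

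Spiny neuron markers did change: 15 of 16 fell and Tac1 rose (0.13, SE 0.0467, adjusted p = 0.0247) in Q140 Polq+/- against Polq+/-. Their summed level was 17694 to 21594 CPM in wild type and 19162 to 20414 in Polq+/-, and 11028 to 12937 in Q140 and 11644 to 12664 in Q140 Polq+/- striatum. Endothelial markers gave 6 of 10 lower, mural cell markers 3 of 10 and oligodendrocyte markers 4 of 10, with none higher in these 3 lists. Cortical excitatory neuron markers gave 3 higher and 1 lower of 10 (median 0.18), with sums of 152 to 170 CPM in Polq+/- and 167 to 196 in Q140 Polq+/- striatum, against 2349 to 2632 in cortex. Over all striatal libraries 73.8% of that sum came from Lamp5, while in cortex Slc17a7 had the largest share (51%). Hippocampal pyramidal markers gave 2 higher and 1 lower of 9, and astrocyte markers 1 higher and 3 lower of 10. Ependymal markers gave 0 of 10 in either direction, and microglial markers 0 of 10 (median -0.09), while in Q140 against wild type 7 of 10 microglial markers were lower (median -0.15). The part of these shifts in the changes of the 4 genes was not tested.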

How the data were processed

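RNA was sequenced from striatum and cortex of 32 mice. For each tissue the authors deposited unnormalized counts, and FPKM beside them, over 48795 genes. Reads were processed with STAR 2.7.5c, SAMtools 1.10 and HTSeq 0.12.3 on GRCm38 (mm10), per the submitters' processing notes. The deposited FPKM values are the counts divided by a gene length and the library total, to a median relative spread of 1.4e-10. Genes passing filterByExpr (18270 in striatum, 18116 in cortex, 19091 over both) were fitted per tissue with genotype and sex by edgeR 4.0.16 (TMM, robust quasi-likelihood test, R 4.3.3), with Benjamini-Hochberg adjustment. Between tissues, mouse was a block. Steps were tested on simulated data.

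The members and lists were chosen with earlier results of these data known. Named genes were the 4 members, up to 4 genes of each pathway list with the smallest p in striatum of Q140 Polq+/- against Polq+/- mice (mean of at least 0.5 CPM) and any called there with a log2 change over 1, the 2 nearest genes on each side, and the 3 most alike of mean 1 CPM or more, 1 of which is not reported here. Alternatives were DESeq2 1.42.0 and its size factors, limma 3.58.1 (voom, or trend on log2 FPKM plus 0.1 or 1), no filter, no sex term, only the groups compared, plate column, 3 dissection covariates, a replicate block, no mouse block, and each library left out. Leaving out 3 striatal libraries that stand apart, or 4 mice of low Polq, was chosen after seeing the data. Labels give each mouse's sex and number; p-values measure the spread between mice.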

Additional observations from a re-analysis of the deposited data

Results flagged for a closer look

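In striatum of Polq+/- mice, male 3 had 4.29 CPM of Tnnt2, against 3.12 in the next library, and female 3 had 5.31 CPM of Dsp, against 2.30 in the next. Each lay apart from the other 7 libraries of its group. Of 32 groups examined these 2 did so, and chance gives about 1 in 20. The Q140 effect within the Polq+/- label differed between striatum and cortex for Ttn by 0.99 and for Tnnt2 by 1.13 on the log2 scale (edgeR, adjusted p = 0.0291 and 1.44e-06).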

How the results depend on the processing

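In striatum of Q140 Polq+/- against Polq+/- mice, 4 of the 4 genes passed, 3 to 4 with any 1 library left out, and 2 with limma on log2(FPKM + 0.1) or log2(FPKM + 1), where Ttn was 0.12 and 0.01 and Tnnt1 -0.34 and -0.14. Ttn lay between 0.00369 and 0.0203 FPKM in these groups, far below both added constants. The FPKM settings therefore flatten any change of Ttn and cannot decide whether it rose. Tnnt1 also missed the threshold without the 3 libraries that stand apart (-0.42, adjusted p = 0.0594). In males against females, 1 member (Dsp) passed with any 1 library left out and 0 without the 4 mice of low Polq. With the replicate block, Ttn was 1.15, Tnnt1 -0.49, Tnnt2 1.26 and Dsp 1.04, all 4 passed, and no other call on the members changed. Residuals of same-numbered mice had a median r of -0.03 in striatum (48 pairs, from -0.27 to 0.26). In cortex the median was -0.04 (48 pairs, from -0.15 to 0.15). Such values cannot exclude a pairing, and the main fits did not pair mice by number. In striatum, genes called in Q140 against wild type numbered 5511 to 6202 with 1 library left out. Counts over all genes in cortex moved more. Q140 against wild type gave 63, 156 with DESeq2, 25 with the plate column, and 23 to 82 with 1 library left out. Q140 Polq+/- against Polq+/- gave 61, 167 with DESeq2, 14 with dissection covariates, and 24 to 139 with 1 library left out. Males against females gave 209, 397 with DESeq2, 84 with dissection covariates, 109 without the 4 mice of low Polq, and 157 to 325 with 1 library left out (325 without Q140 Polq+/- male 1, 323 without wild-type female 4). In striatum it gave 67, and 121 with DESeq2. Few reads limit Ttn in cortex, and Dsp there was too low to test.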
